A study of Rattus norvegicus with 12 samples.

Results

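The genes of microglial purinergic and pain signalling followed here, in rat lumbar spinal cord tissue from L3-5, were the ligand Csf1, its receptor Csf1r, the nucleotide receptors P2rx4, P2rx7 and P2ry6, and the transcription factors Irf8 and Irf5. These 7 were taken by name from the 23526 genes of the expression table. Each had a single entry: Csf1 (ENSRNOG00000018659, chromosome 2), Csf1r (ENSRNOG00000018414, chromosome 18), P2rx4 (ENSRNOG00000001300) and P2rx7 (ENSRNOG00000001296) on chromosome 12, P2ry6 (ENSRNOG00000019270, chromosome 1), Irf8 (ENSRNOG00000017869, chromosome 19) and Irf5 (ENSRNOG00000007437, chromosome 4). All 7 passed the filter on low counts, with at least 196 reads in every library. The groups were SCI (spinal cord injury) at day 3, at day 7 and at day 14, and sham, labelled day 0, with 3 libraries each from whole lumbar tissue. Strain, age, sex, the level and kind of injury, and whether the libraries of a group came from separate animals are not in the labels, so a p-value reflects only how these libraries differed, which may be technical. Sham tissue was taken at day 0 alone, and none was matched to a later day.

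ATP and other nucleotides released by damaged cells act on microglia through P2X receptors, which are ion channels, and P2Y receptors, which couple to G proteins. P2X4 is known from work on nerve injury in rodents as the microglial channel whose activation releases BDNF and shifts chloride balance in dorsal horn neurons, P2X7 opens at high ATP and drives processing of interleukin-1 beta, and P2Y6 binds UDP and promotes phagocytosis. In mice, IRF8 was described upstream of IRF5, and IRF5 upstream of P2rx4, while CSF1 sustains microglia through CSF1R. These roles are background and were not measured here.

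The libraries held 63010295 to 79072710 counts each and differed in tissue makeup. Summed over 10 neuron markers, SCI day 3 replicates 1 and 3 held 488 and 438 CPM (counts per 1000000 of the library total), while SCI day 3 replicate 2 held 4485 CPM and sham libraries 4297 to 5823 CPM. Relative to the sham mean, sensory ganglion markers were up 2.88, 4.37 and 5.13 log2 units in SCI day 3 replicate 2 and in SCI day 14 replicates 1 and 2. Schwann cell markers stood 2.61 above it in SCI day 3 replicate 3 and 1.55 above it in sham replicate 2. Skeletal muscle markers stood 5.26 above it in SCI day 7 replicate 2, and erythrocyte markers 4.30 above it in SCI day 7 replicate 1. Neutrophil markers summed to 29.4 to 83.6 CPM at day 3, 13.5 to 20.4 CPM at day 7, 8.78 to 36.2 CPM at day 14, and 88.9 CPM in sham replicate 2 against 3.05 and 2.36 CPM in the other sham libraries. Endothelial markers stood 1.95, 0.63 and 1.70 above the sham mean at day 3. Mitochondrial transcripts took 5.43% to 10.8% of the counts, with the lowest shares in SCI day 3 replicates 1 and 3.

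The bases upstream of 3 of the genes are shown because P2rx4 and P2rx7, a pair on the same strand of chromosome 12, followed the most similar course of the receptors, and because Irf8 had the largest differences among the 5 members with an entry. Each is the 250 bases before the RefSeq start on rat build GRCr8, for P2rx4 chr12:39523090-39523339 on the minus strand, for P2rx7 chr12:39594923-39595172 on the minus strand and for Irf8 chr19:65699034-65699283 on the plus strand. Capitals mark GAGGAA, a core sequence bound by PU.1, the myeloid factor encoded by Spi1.
P2rx4: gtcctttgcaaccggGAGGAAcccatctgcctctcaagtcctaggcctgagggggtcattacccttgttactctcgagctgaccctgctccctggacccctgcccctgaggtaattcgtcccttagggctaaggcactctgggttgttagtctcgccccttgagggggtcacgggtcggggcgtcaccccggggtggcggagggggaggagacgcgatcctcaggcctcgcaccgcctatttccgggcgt
P2rx7: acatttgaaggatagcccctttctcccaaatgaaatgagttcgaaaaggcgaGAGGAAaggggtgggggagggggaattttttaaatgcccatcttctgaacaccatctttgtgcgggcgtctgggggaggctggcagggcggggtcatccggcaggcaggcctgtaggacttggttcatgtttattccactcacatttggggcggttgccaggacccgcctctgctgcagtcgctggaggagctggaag
Irf8: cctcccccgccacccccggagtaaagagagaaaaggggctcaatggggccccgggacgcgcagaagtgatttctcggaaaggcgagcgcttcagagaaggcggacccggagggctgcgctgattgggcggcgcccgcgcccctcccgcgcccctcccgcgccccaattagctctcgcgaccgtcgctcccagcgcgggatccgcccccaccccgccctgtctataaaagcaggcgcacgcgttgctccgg
GAGGAA was searched on both strands. It occurred in the windows of 3 of the 5 members with an entry (Csf1r, P2rx4 and P2rx7) and in 23.3% of 33469 rat promoter windows of the same length. GAAA followed after 2 unspecified bases by another GAAA, a repeat bound by interferon regulatory factors, was in 0 of the 5 and in 3.41% of those windows. The P2rx4 and P2rx7 windows were 64.0% and 56.0% G and C, and the Irf8 window 70.4%. Csf1 and P2ry6 had no entry.

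All 7 genes averaged higher after SCI than in sham on each of the 3 days, and P2ry6 and Irf8 had the largest fold changes, between 3.35-fold and 5.87-fold. Without SCI day 3 replicate 1, their day 3 values were 2.29-fold for P2ry6 and 1.91-fold for Irf8. None of these differences passed edgeR's quasi-likelihood test after Benjamini-Hochberg adjustment over the 18714 genes tested. In bulk tissue, more cells of a type and more RNA per cell cannot be told apart.

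**Figure D1:**
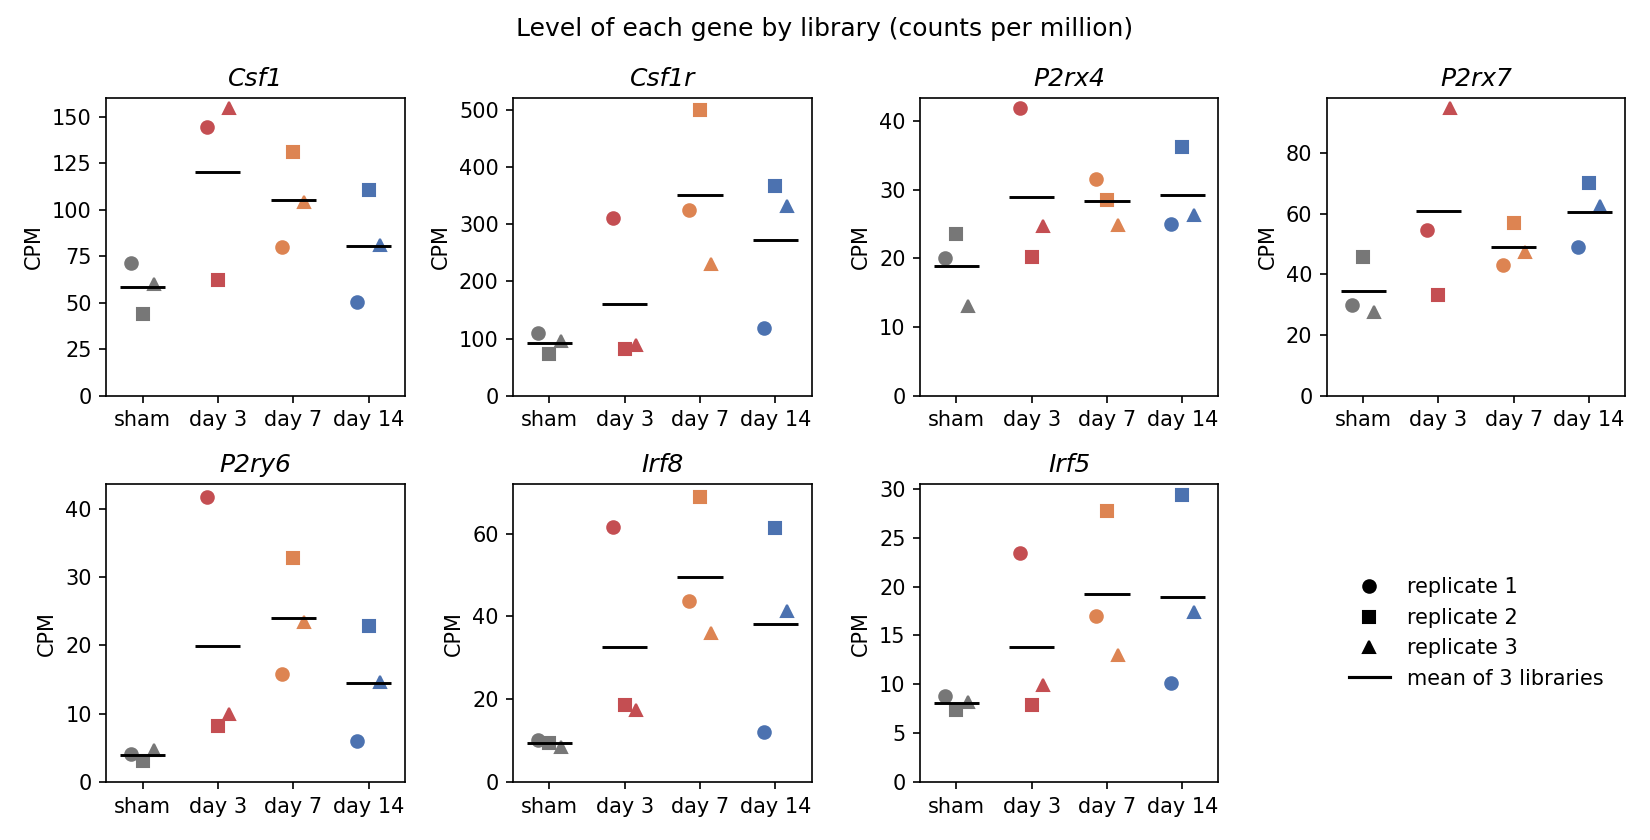
CPM of each gene (y axis, from 0, with a scale of its own) in the 12 libraries, by group on the x axis. Points are libraries, with a shape for each replicate number, and lines are means of 3 libraries. P2ry6 and Irf8 lay above all sham libraries in all 9 SCI libraries, while SCI day 14 replicate 1 was the lowest of its day for all 7 genes.

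Csf1, the growth factor that microglia depend on, measured 71.3, 43.9 and 60.0 CPM in sham, 145, 62.0 and 155 CPM at day 3, 80.2, 131 and 104 CPM at day 7, and 50.3, 111 and 80.9 CPM at day 14. Every day 7 library lay above every sham library, while SCI day 3 replicate 2 and SCI day 14 replicate 1 lay within the sham range. The log2 difference from sham was 1.01 ± 0.38 at day 3 (SE; edgeR adjusted p = 0.0983), 0.79 ± 0.38 at day 7 (0.535) and 0.42 ± 0.38 at day 14 (0.891). Csf1 was the only member whose mean CPM was lower at each later day than at the day before, with means of 120.4 ± 50.8, 105 ± 25.3 and 80.6 ± 30.2 CPM at days 3, 7 and 14 (SD, n = 3 each), steps within the spread of the libraries.

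Csf1r, the receptor tyrosine kinase for CSF1, measured 109.6, 73.3 and 95.2 CPM in sham, 312, 82.1 and 88.1 CPM at day 3, 325, 500.03 and 231 CPM at day 7, and 118, 368 and 333 CPM at day 14. At day 3 a single library stood out and the other two lay within the sham range, whereas all libraries of days 7 and 14 lay above sham, SCI day 14 replicate 1 by a small margin. The log2 difference from sham was 0.73 ± 0.55 at day 3 (edgeR adjusted p = 0.354), 1.87 ± 0.56 at day 7 (0.321) and 1.51 ± 0.56 at day 14 (0.618). Without SCI day 3 replicate 1 the day 3 value was -0.14, on the other side of 0.

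P2rx4, the ATP-gated channel of the BDNF route, measured 20.1, 23.5 and 13 CPM in sham, 41.9, 20.2 and 24.7 CPM at day 3, 31.5, 28.6 and 24.9 CPM at day 7, and 25.1, 36.2 and 26.3 CPM at day 14. The libraries of days 7 and 14 lay above all sham libraries, the lowest of each just above sham replicate 2, and day 3 overlapped sham through replicate 2. The log2 difference was nearly the same at each day, 0.57 ± 0.29, 0.55 ± 0.29 and 0.59 ± 0.29 (SE; edgeR adjusted p = 0.181, 0.591 and 0.703).

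P2rx7, the channel tied to interleukin-1 beta release, measured 30.0, 45.6 and 27.6 CPM in sham, 54.8, 33.2 and 94.8 CPM at day 3, 43.2, 56.9 and 47.4 CPM at day 7, and 49.2, 70.0 and 62.5 CPM at day 14. Only the day 14 libraries all lay above sham. Its highest libraries at day 3 (replicate 3), at day 14 (replicate 2) and in sham (replicate 2) were those with the most Schwann cell markers of their groups. At day 7 its highest library, replicate 2, had the fewest of all 12, at -1.66 from the sham mean. Their part in its level was not tested. The log2 difference was 0.81 ± 0.34 at day 3, 0.47 ± 0.34 at day 7 and 0.78 ± 0.34 at day 14 (SE; edgeR adjusted p = 0.127, 0.706 and 0.670).

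P2ry6, the UDP receptor, measured 4.07, 3.01 and 4.68 CPM in sham, 41.6, 8.13 and 9.98 CPM at day 3, 15.7, 32.8 and 23.3 CPM at day 7, and 5.93, 22.8 and 14.7 CPM at day 14. All 9 SCI libraries lay above all 3 sham libraries. Its log2 difference from sham was 2.28 ± 0.65 at day 3, 2.55 ± 0.65 at day 7 and 1.84 ± 0.64 at day 14 (SE), or 4.86-fold, 5.87-fold and 3.57-fold. Without SCI day 3 replicate 1 the day 3 value was 1.19. The edgeR adjusted p was 0.0564 at day 3, just over the limit of 0.05, 0.251 at day 7 and 0.601 at day 14.

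Irf8, the interferon regulatory factor that microglia and other myeloid cells need to develop, measured 10.2, 9.42 and 8.37 CPM in sham, 61.6, 18.5 and 17.4 CPM at day 3, 43.8, 68.9 and 36.1 CPM at day 7, and 12.1, 61.5 and 41.3 CPM at day 14. It shared with P2ry6 the separation of all 9 SCI libraries from sham, SCI day 14 replicate 1 being the nearest. The sham libraries differed little, at 9.32 ± 0.90 CPM (SD, n = 3). Its log2 difference was 1.74 ± 0.59 at day 3, 2.36 ± 0.60 at day 7 and 1.99 ± 0.60 at day 14 (SE; edgeR adjusted p = 0.0795, 0.251 and 0.594), and the day 3 value was 0.93 without SCI day 3 replicate 1.

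Irf5, a factor of inflammatory gene induction, measured 8.83, 7.35 and 8.17 CPM in sham, 23.5, 7.87 and 9.96 CPM at day 3, 17.0, 27.7 and 13 CPM at day 7, and 10.1, 29.4 and 17.4 CPM at day 14. As for Csf1r, days 7 and 14 lay above sham throughout. At day 3, Irf5 lay above all sham libraries in replicates 1 and 3 and within the sham range in replicate 2. The log2 difference was 0.71 ± 0.46 at day 3, 1.19 ± 0.46 at day 7 and 1.18 ± 0.46 at day 14 (SE; edgeR adjusted p = 0.284, 0.436 and 0.629), with 0.12 at day 3 without SCI day 3 replicate 1.

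**Figure D2:**
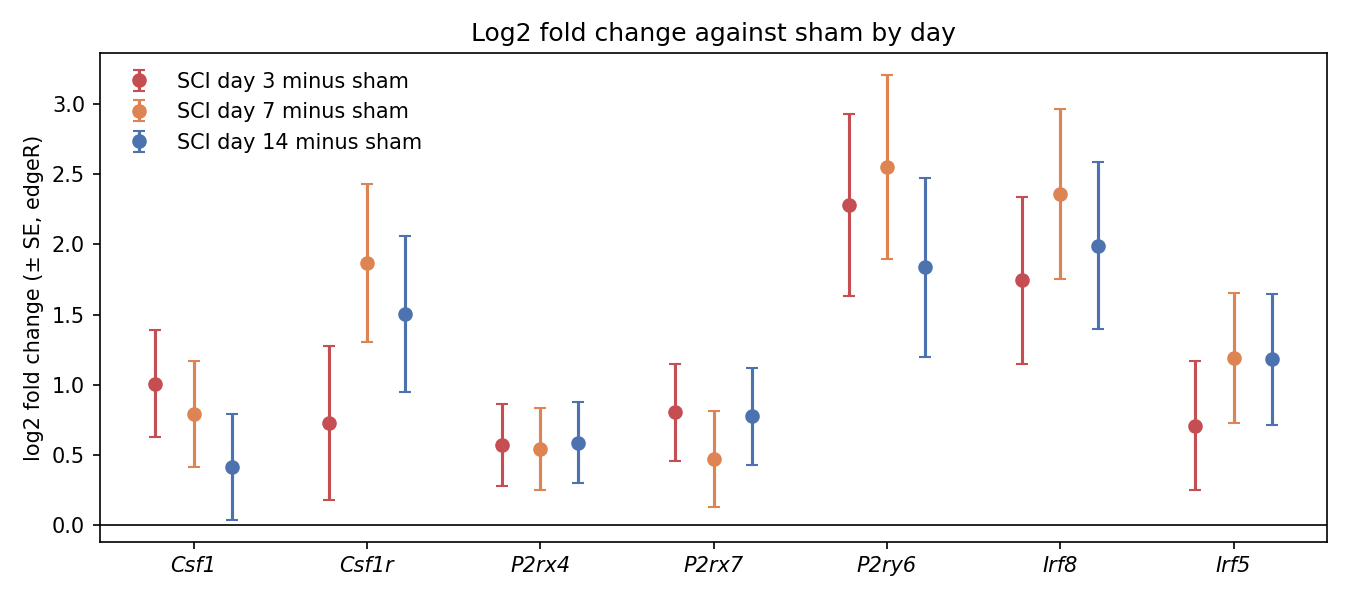
Log2 fold change of each gene against sham (y axis) at days 3, 7 and 14, as edgeR estimates with bars of 1 SE. All estimates lie above 0, with P2ry6 and Irf8 the highest at each day and P2rx4 nearly level at 0.57, 0.55 and 0.59.

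Counted together, 0 of 7 genes passed at day 3 against sham, where 6.7% of all genes tested did and 5.5% did so as higher. At an unadjusted p under 0.05, 4 of 7 were higher (Csf1, P2rx7, P2ry6 and Irf8), where 20.6% of all genes were. The median log2 difference was 0.81 over the 7 genes and 0.03 over all genes tested. In 2 of 7, P2ry6 and Irf8, every day 3 library lay above every sham library, as in 21.2% of all genes. DESeq2 called those 2 genes as higher, as it did 17.8% of all genes with an adjusted p. Limma voom with sample weights called Csf1, P2rx7 and P2ry6 as higher, as it did 17.7% of all genes.

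At day 7 against sham, 0 of 7 passed, with 0.016% of all genes called, and 4 of 7 were higher at an unadjusted p under 0.05 (Csf1r, P2ry6, Irf8 and Irf5), where 7.76% of all genes were. The median was 1.19 over the 7 genes and -0.02 over all genes. For 6 of 7 (all but P2rx7), every day 7 library lay above every sham library, as for 13.9% of all genes. DESeq2 called Csf1r, P2ry6 and Irf8, with 2.6% of all genes called as higher. P2ry6 and Irf8 were also called by limma voom, with 1.39% of all genes, and, with adjusted p of 0.0349 and 0.0310, by edgeR fitted to the day 7 and sham libraries alone, with 0.477%.

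At day 14 against sham, 0 of 7 passed in edgeR, DESeq2 and limma voom, with 0.016%, 1.16% and 0.0481% of all genes called in these tools. At an unadjusted p under 0.05, 5 of 7 were higher (all but Csf1 and P2rx4), where 6.43% of all genes were. The median was 1.18, against 0.01 over all genes, and 6 of 7 (all but Csf1) had every day 14 library above every sham library, as did 11% of all genes. SCI day 14 replicate 1 had the lowest level of its day for all 7 genes and replicate 2 the highest for all 7.

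Over all 9 SCI libraries against sham, 0 of 7 passed, with 0.0481% of all genes called. All 7 were higher at an unadjusted p under 0.05, where 13% of all genes were, and the median was 1.03, against 0.00 over all genes. P2ry6 averaged 19.4 ± 11.9 CPM over the 9 SCI libraries, against 3.92 ± 0.85 CPM in sham (SD, n = 3), a log2 difference of 2.22 ± 0.58 (SE; edgeR adjusted p = 0.151). Irf8 averaged 40.1 ± 21.1 CPM over the SCI libraries, against 9.32 ± 0.90 CPM in sham, a log2 difference of 2.03 ± 0.54 (SE; edgeR adjusted p = 0.151). Those were the 2 of 7 genes with no overlap between all SCI and all sham libraries, as in 4.37% of all genes. In the exact two-sided permutation test of log2 CPM over the 220 ways to draw 3 of 12 libraries, both gave p = 0.00455, the smallest it can give. P2rx4 and P2rx7 gave 0.0227 and 0.0409 in that exact test and the other 3 genes 0.05 to 0.0773, where 9.46% of all genes were higher at p under 0.05. Adjusted over all genes tested, these exact p-values were 0.241 to 0.337. The number of members called depended on the tool: 3 in DESeq2 (Csf1r, P2ry6 and Irf8), where 7.13% of all genes were called as higher, and all 7 in limma voom with sample weights, with adjusted p from 0.0120 to 0.0444, where 14.7% were.

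A single library also decided calls. Without SCI day 3 replicate 2, which had the lowest level of its day for 6 of the 7 genes, edgeR called Csf1, P2rx7, P2ry6 and Irf8 at day 3, with log2 differences of 1.32, 1.11, 2.65 and 2.02 (adjusted p = 0.0105, 0.0134, 0.00906 and 0.0282), and the same 4 genes over all SCI libraries. In that fit 19.2% of all genes were called as higher at day 3 and 8.21% over all SCI libraries. With SCI day 3 replicates 1 and 3 left out instead, the day 3 differences of Csf1r, P2rx7 and Irf5 were -0.23, -0.10 and -0.10, which describe replicate 2 alone.

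Between SCI days, 0 of 7 genes passed for day 7 against day 3, day 14 against day 7, or day 14 against day 3, and 0% of all genes tested passed in any of these. At an unadjusted p under 0.05, 0 of 7 differed in either direction in those 3 comparisons. Of all genes, 14.8%, 3.67% and 17.9% did, and 5.33%, 2.24% and 6.83% did so as higher. Adjusted p-values of the 7 genes ran from 0.345 to 0.968, were all 1, and ran from 0.398 to 0.979 in those comparisons. DESeq2 also called 0 of the 7 between days, with 1.32%, 0.269% and 6.68% of all genes called (0.689%, 0.162% and 1.98% as higher), and limma voom 0, with at most 0.00534%. The mean of Csf1r was 352 ± 137 CPM at day 7, against 161 ± 131 CPM at day 3 (SD, n = 3 each), and the libraries overlapped.

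Levels can be set against each other between genes only per length, for which the deposited FPKM values were used. In sham, Csf1r had the highest level, at 19.4 ± 3.82 FPKM, followed by Csf1 at 12.3 ± 2.88, P2rx4 at 7.97 ± 2.27 and P2rx7 at 6.23 ± 1.78 FPKM (SD, n = 3 each). Irf5 at 2.22 ± 0.20, Irf8 at 1.52 ± 0.15 and P2ry6 at 1.18 ± 0.25 FPKM came last. The neighbours Csf1 and P2rx4, P2rx4 and P2rx7, and Irf8 and P2ry6 overlapped in that order, and the other neighbours did not.

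At day 7 the order began likewise, with Csf1r at 73.7 ± 28.8, Csf1 at 22.1 ± 5.35, P2rx4 at 11.9 ± 1.4 and P2rx7 at 8.87 ± 1.28 FPKM. Irf8 at 8.11 ± 2.82 and P2ry6 at 7.22 ± 2.58 FPKM stood before Irf5 at 5.26 ± 2.09 FPKM, all 3 overlapping their neighbours. At day 3 the means ran from 33.7 ± 27.4 FPKM for Csf1r to 3.77 ± 2.31 FPKM for Irf5, and at day 14 from 57.2 ± 28.5 FPKM for Csf1r to 4.37 ± 2.56 FPKM for P2ry6. Csf1r had the highest mean at each time point, at day 3 through replicate 1: without it Csf1r averaged 17.9 FPKM and Csf1 22.8 FPKM.

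The highest library of each day was mostly shared. SCI day 3 replicate 1 was highest for 5 of the 7 genes, SCI day 7 replicate 2 for 6 and SCI day 14 replicate 2 for 7. General markers of microglia and macrophages (Aif1, Itgam, Ptprc, Fcer1g, Laptm5, Cd68, Itgb2 and Cd53, all 8 present in every library) stood highest of their day in the same libraries, 2.51, 2.31 and 2.40 log2 units above the sham mean. They stood 0.54 and 0.97 above it in the other day 3 libraries and 0.12 above it in SCI day 14 replicate 1. Summed over the list, SCI libraries held 243 to 851 CPM at day 3, 434 to 666 CPM at day 7 and 217 to 719 CPM at day 14, and sham libraries 290 to 314 CPM. By this sum SCI day 3 replicate 2 (243 CPM) and SCI day 14 replicate 1 (217 CPM) lay below sham, while the list mean put both above it. The sum weighs each gene by its level, and it includes Fcer1g. In edgeR, 7 of those 8 genes were higher over all SCI libraries and Fcer1g was lower, at -0.84 (log2), with 0 of 8 called.

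Homeostatic microglial markers, the 11 genes of resting microglia such as P2ry12, Tmem119 and Cx3cr1, followed another course as a list mean. They stood 0.15, -1.0 and -1.31 from the sham mean at day 3, 0.79, 1.33 and -0.26 at day 7, and 0.04, 1.29 and 1.04 at day 14. The genes of the list differed. In edgeR, 4 of 11 were higher at day 3, with log2 differences from -1.85 to 0.76. Over all SCI libraries 7 of 11 were higher, from -0.23 to 1.19. Cx3cr1 averaged 38.3 CPM in sham and 67.9, 117 and 95.2 CPM at days 3, 7 and 14. Markers of monocytes and border macrophages stood above sham in all 9 SCI libraries, at 1.10 to 2.49 at day 3, 1.08 to 2.16 at day 7 and 0.70 to 1.96 at day 14, with sham libraries between -0.29 and 0.52. Summed, those 11 genes held 597 to 1690 CPM at day 3, 785 to 1438 CPM at day 7 and 438 to 1242 CPM at day 14, against 275 to 351 CPM in sham, and none was at 0 in any library. Their part in the members' levels was not tested.

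**Figure D3:**
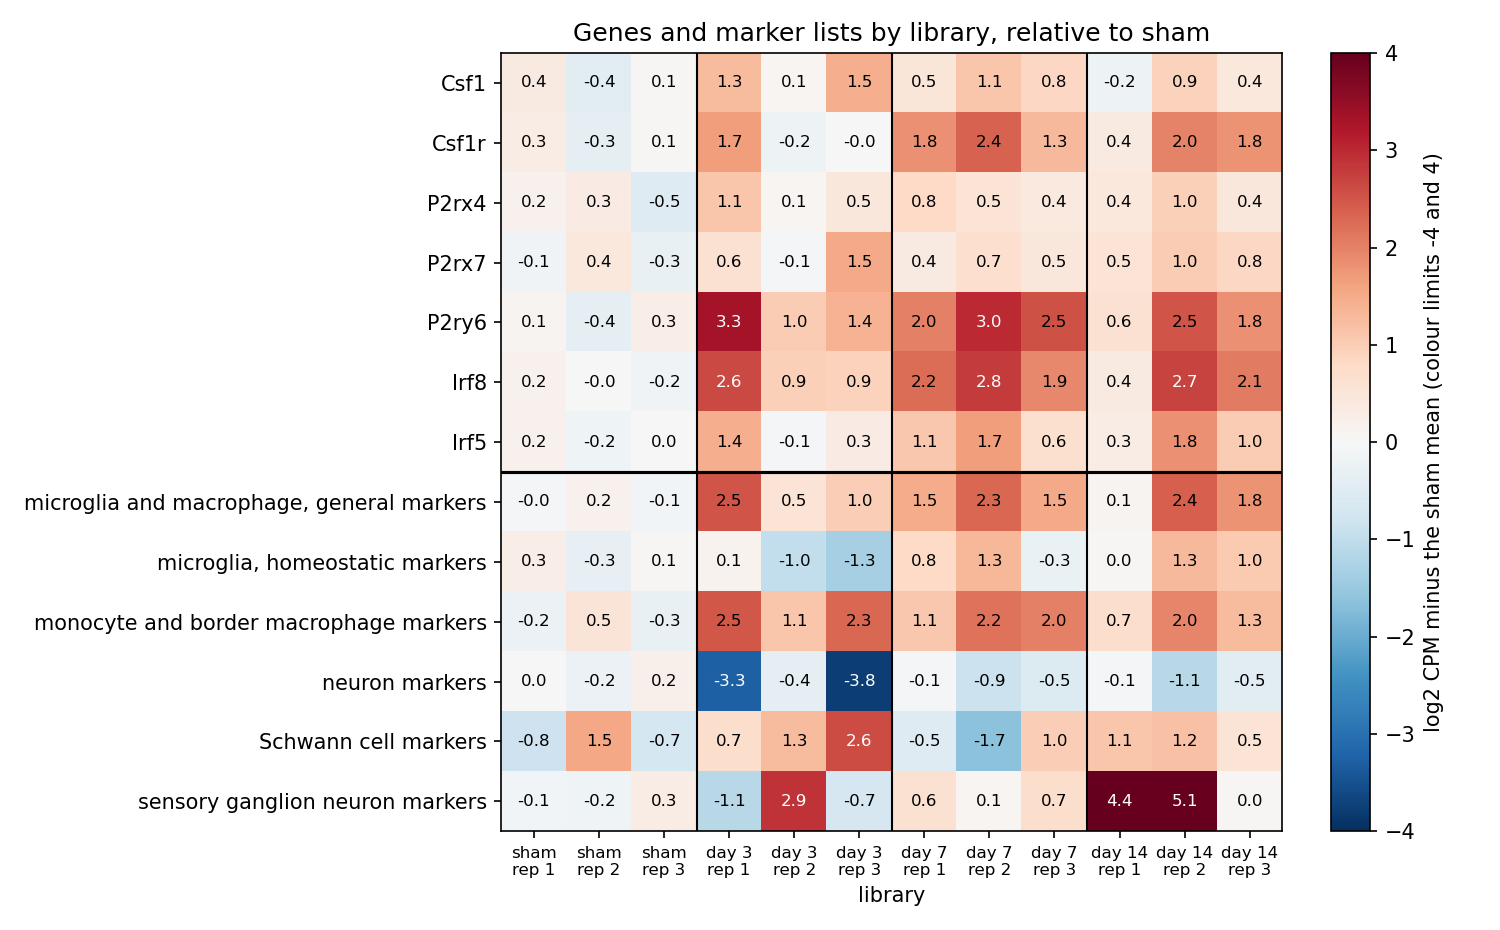
Log2 CPM minus the sham mean for the 7 genes (upper rows) and 6 marker lists (lower rows, mean over each list) in the 12 libraries, as numbers and colour, with colour limits of -4 and 4. General microglia and macrophage markers are highest in the day 3, 7 and 14 libraries in which most of the genes are highest, at 2.51, 2.31 and 2.40.

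Each gene was also taken relative to the marker lists, as its log2 CPM minus the list's mean log2 CPM, and compared over 9 SCI and 3 sham libraries with the exact two-sided permutation test. Relative to the general markers, 63% of all genes were lower and 0.374% higher at p under 0.05. Csf1, Csf1r, P2rx4, P2rx7 and Irf5 averaged lower after SCI by this measure, with differences of -0.81, -0.29, -0.93, -0.85 and -0.60, and 1 of 7 (Irf5, exact p = 0.0227) was under 0.05. Adjusted over all genes the value of Irf5 was 0.0505, where 37.7% of all genes passed. P2ry6 and Irf8 were the only members that averaged higher relative to these markers, by 0.52 and 0.33 (exact p = 0.0636 and 0.05). For Irf8 this turned on Fcer1g: with the other 7 markers, an alternative chosen after the values were seen, Irf8 differed by -0.018 and P2ry6 by 0.17 (exact p = 0.932 and 0.545). With those markers 3 genes, Csf1, P2rx4 and Irf5, were lower, at -1.16, -1.28 and -0.95 (exact p = 0.0273, 0.0227 and 0.00909), where 75.5% of all genes were lower and 0.208% higher at p under 0.05.

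Relative to the homeostatic markers, 1.82% of all genes were higher and 1.23% lower at p under 0.05, and 0% passed after adjustment over all genes. Csf1r was higher by 1.0, in 9 of 9 SCI libraries above all sham libraries, with p = 0.00455, the smallest the exact test can give. Its values relative to the sham mean were 1.54, 0.79 and 1.28 at day 3, 1.05, 1.03 and 1.55 at day 7, and 0.31, 0.69 and 0.74 at day 14, with sham between -0.01 and 0.02. P2ry6 was higher by 1.80, in 9 of 9 SCI libraries, and Irf8 by 1.61, in 8 of 9 (exact p = 0.00909 each). The other 4 genes gave exact p from 0.05 (Irf5) to 0.564 (P2rx7), and all 7 had an adjusted p of 0.9998 over all genes. At day 3 Csf1r lay in 2 libraries within the sham range by CPM but above sham in all 3 relative to this list, which itself stood below sham in those libraries. The list holds Cx3cr1, the named gene whose course over the libraries was nearest to that of Csf1r.

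**Figure D4:**
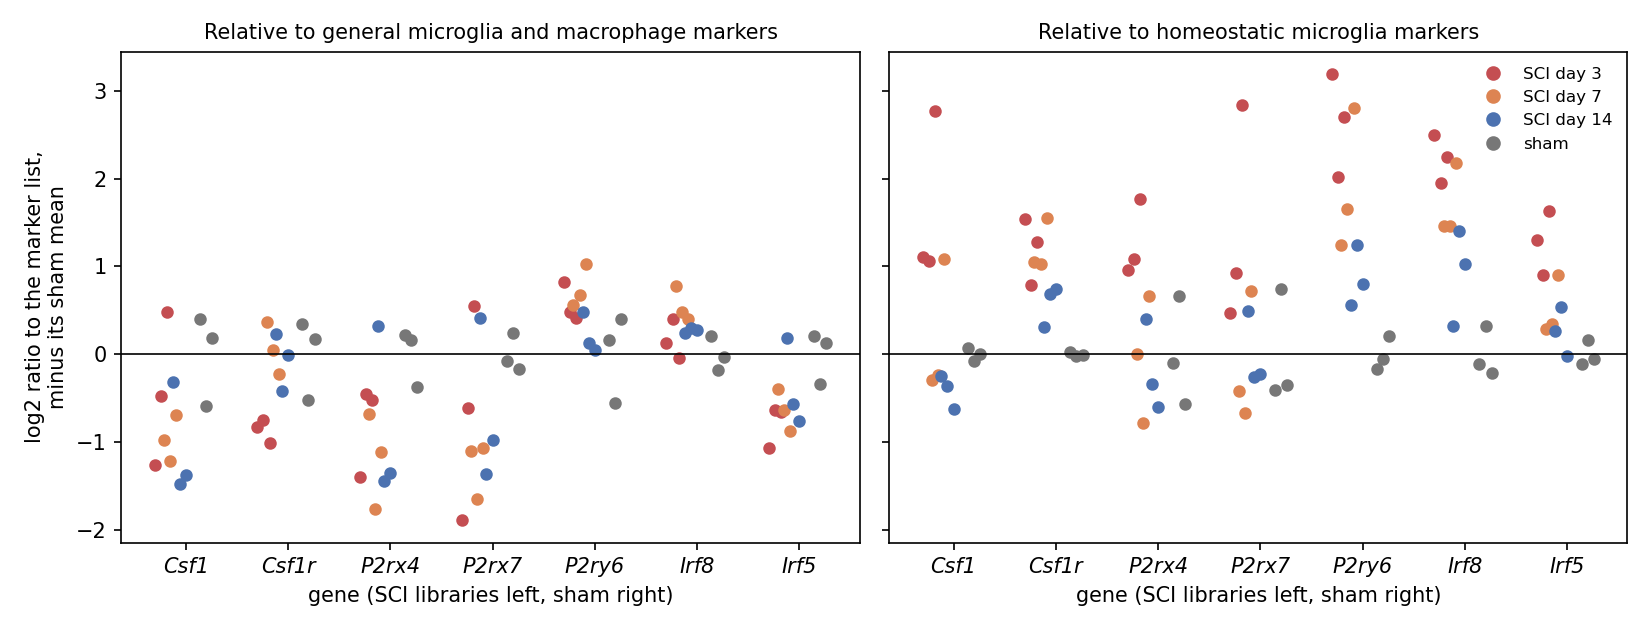
Log2 ratio of each gene (x axis) to the general microglia and macrophage markers (left panel) and to the homeostatic microglia markers (right panel), minus its sham mean, with points for libraries, SCI left of sham. In the right panel Csf1r and P2ry6 lie above sham in 9 of 9 SCI libraries. In the left panel P2rx4 and Irf5 lie below all sham libraries in 8 of 9. Relative to those general markers, 63% of all genes were lower at an exact permutation p under 0.05.

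The course of each gene was compared with all other genes tested by the root mean square difference of centred log2 CPM over the 12 libraries, given as a description. Among the members the closest pair was P2ry6 and Irf8 at 0.343, then Csf1r and Irf5 at 0.371 and P2rx4 and P2rx7 at 0.392, and the farthest was P2rx7 and P2ry6 at 1.03. The 3 nearest genes with a name were Itgam, Slc11a1 and Lcp2 for P2ry6 (nearest 0.217), and Fyb1, Tasl and Mpeg1 for Irf8 (0.211). Itgam encodes the CD11b integrin chain, Slc11a1 a phagosomal metal transporter and Mpeg1 a pore-forming protein of macrophages.

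For Csf1r the nearest were Cx3cr1, the microglial fractalkine receptor, Nckap1l and Pld4 (0.196 for the first), and for Irf5 Fam110a, the lysosomal protease gene Ctsd, and Ptafr, the receptor for platelet-activating factor (0.195). The nearest of P2rx4 were Rpp40, Abcc4 and Eci3 (0.196), of P2rx7 Alpk1 and Pold4 (0.194; the nearest 2 are given for this gene), and of Csf1 Man1a1, Litaf and Carhsp1 (0.207). The median distance to all genes tested was 0.601 for P2rx4, the lowest of the members, and 1.24 for P2ry6, the highest.

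Of 69 other genes tested on the pathway lists, 10 passed in edgeR at day 3 against sham, where 6.7% of all genes did, and 0 on any other day or over all SCI libraries. DESeq2 called 31, 12 and 4 of them at days 3, 7 and 14 and 22 over all SCI libraries, where it called 30.7%, 2.88%, 1.16% and 8.56% of all genes. Limma voom with sample weights called 34, 7, 0 and 35, where it called 33.3%, 1.47%, 0.0481% and 30.5%. Of 5 other P2X and 7 other P2Y receptor genes, 0 passed on any day (edgeR; at day 3, 2 and 4 had an unadjusted p under 0.05, as did 35.3% of all genes). At that day DESeq2 called P2rx2 and P2ry12 as lower, and limma voom called P2rx2, P2rx5 and P2rx6 as lower and P2ry10 and P2ry14 as higher. DESeq2 called P2rx3 at day 14 and P2ry10 over all SCI libraries as higher. Limma voom called P2ry14 as higher at day 7, and over all SCI libraries P2rx1, P2ry10 and P2ry14 as higher and P2rx5 and P2rx6 as lower. At day 3 their median log2 differences were -1.0 and -0.26, against 0.03 over all genes. P2rx3, a channel of pain-sensing ganglion neurons, reached 24.2 CPM in SCI day 3 replicate 2, and 56.7 and 102 CPM in SCI day 14 replicates 1 and 2, against at most 3.65 CPM in the other 9 libraries. These 3 are the libraries with raised ganglion markers, a list that holds P2rx3 itself. The platelet and leukocyte channel gene P2rx1 differed from sham by 1.41 over all SCI libraries (edgeR adjusted p = 0.218), P2rx5 by -1.02 and P2rx6 by -0.75. P2ry14, a UDP-sugar receptor, differed by 1.01 and the lymphoid P2ry10 by 2.10, at under 1 CPM in every library, while P2ry1 and P2ry4 differed by -0.25 and -0.13.

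Of 16 genes of ATP release and breakdown, 1 rose and 1 fell at day 3 in edgeR, where 6.7% of all genes passed. DESeq2 called 4 as higher and 2 as lower at that day, and limma voom 4 and 4. Of all genes, these 2 tools called 30.7% and 33.3% at day 3. Entpd1, the CD39 enzyme that strips phosphate from extracellular ATP, measured 145, 39.4 and 127 CPM at day 3, against 22.9, 27.4 and 23.4 CPM in sham, and rose by 2.04 ± 0.44 on the log2 scale (SE; edgeR adjusted p = 0.0369). Gja1, the astrocyte connexin 43, measured 151, 209 and 104 CPM at day 3, against 352, 287 and 356 CPM in sham, and fell by 1.15 (edgeR adjusted p = 0.0392). Astrocyte markers, a list that holds Gja1, stood 1.31, 0.63 and 2.16 log2 units below the sham mean in the day 3 libraries. Over all SCI libraries Slc17a9, the vesicular nucleotide transporter, differed by 1.74, Ada, adenosine deaminase, by 1.34, and Enpp2, autotaxin, by -0.74 (edgeR adjusted p = 0.151, 0.199 and 0.223). DESeq2 and limma voom both called Slc17a9 and Ada in that comparison, where they called 8.56% and 30.5% of all genes, and limma voom also called Enpp2. Both tools called Slc17a9 and Ada at day 3 and Slc17a9 at day 7.

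Of 9 genes tested of the CSF receptor axis, 2 rose at day 3 in edgeR, where 5.5% of all genes were called as higher. All 9 were higher, with a median of 1.78, as were 51.9% of all genes. DESeq2 called 5 of the 9 as higher at that day and limma voom 6, where they called 17.8% and 17.7% of all genes as higher. Csf2rb, the common beta chain of the GM-CSF and interleukin-3 receptors, measured 167, 43.3 and 140.2 CPM at day 3, against 3.03, 4.28 and 2.61 CPM in sham. It rose by 5.11 ± 0.80 on the log2 scale (SE; edgeR adjusted p = 0.0324). At day 14 it still measured 8.14, 40.7 and 23.6 CPM, above all sham libraries. Runx1, a myeloid transcription factor, measured 37.0, 7.88 and 20.0 CPM at day 3, against 4.04, 3.61 and 3.49 CPM in sham, and rose by 2.5 (edgeR adjusted p = 0.0338). Tyrobp, the DAP12 adaptor, and Csf3r differed from sham by 2.43 and 1.61 over all SCI libraries (edgeR adjusted p = 0.151 and 0.168). DESeq2 and limma voom each called both genes as higher in that comparison, where they called 7.13% and 14.7% of all genes as higher.

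Of 7 other interferon regulatory factor genes, Irf2 rose at day 3 in edgeR, by 0.60 ± 0.15 (SE; edgeR adjusted p = 0.0471), with 35.1, 27.1 and 33.2 CPM at day 3, against 19.6, 22.7 and 19.3 CPM in sham. At that day DESeq2 also called Irf1 and Irf9 as higher, and limma voom Irf9, where they called 17.8% and 17.7% of all genes as higher. Irf9, Irf1 and Irf7 differed over all SCI libraries by 1.37, 1.20 and 1.09 (edgeR adjusted p = 0.165, 0.202 and 0.288). In that comparison DESeq2 called Irf2 and Irf9 as higher, and limma voom Irf1, Irf2 and Irf9. Of all genes, these tools called 7.13% and 14.7% as higher there.

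Of 25 genes tested of downstream pain mediators, 5 rose at day 3 in edgeR, where 5.5% of all genes were called as higher. Ptgs2, the inducible cyclooxygenase, rose by 2.71 and Lyn, a Src-family kinase, by 2.16 (edgeR adjusted p = 0.0324 and 0.0463). Fn1, fibronectin, rose by 2.12 and Itgb1, an integrin chain that binds it, by 1.36 (edgeR adjusted p = 0.0424 and 0.0421). Ccl2, a monocyte chemokine, rose by 6.36 (edgeR adjusted p = 0.0369). Ptgs2 measured 25.2, 28.8 and 46.1 CPM at day 3, against 5.78, 5.10 and 4.13 CPM in sham. Ccl2 measured 22.6, 4.24 and 73.0 CPM at day 3, against 0.25, 0.75 and 0.21 CPM in sham. Fn1 is also on the monocyte and border macrophage list. Nlrp3, the inflammasome sensor downstream of P2X7, differed by 1.70 over all SCI libraries (edgeR adjusted p = 0.130), where DESeq2 and limma voom called it. Of the 25 genes, DESeq2 called 13 as higher and 2 as lower at day 3, and limma voom 10 and 3. Of all genes, these tools called 30.7% and 33.3% at that day, and 17.8% and 17.7% as higher.

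The mediators that the P2X4 route is known for, named here after their values were seen, did not pass in edgeR. Bdnf measured 3.35, 4.95 and 0.49 CPM at day 3, against 3.90, 2.32 and 3.55 CPM in sham (log2 difference -0.22; edgeR adjusted p = 0.841). Slc12a5, the neuronal chloride exporter KCC2, measured 33.2, 389 and 30.4 CPM at day 3, against 494, 456 and 599 CPM in sham (log2 difference -1.82; edgeR adjusted p = 0.171), and limma voom called it as lower. It was low in the libraries with few neuron markers, a list that holds it, and limma voom also called it over all SCI libraries. Ntrk2, the BDNF receptor gene, was called as lower at day 3 by DESeq2 and limma voom, where they called 30.7% and 33.3% of all genes. Limma voom also called Ntrk2 as lower over all SCI libraries, where it called 30.5% of all genes.

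All 10 pathway calls at day 3 depended on the fit and on its libraries. All 10 remained without SCI day 3 replicate 2, in DESeq2 and in limma voom. None was called with the replicate number as a block or with only the day 3 and sham libraries fitted, and 6 were called with no filter on low counts. None was called without sham replicate 1 or 3, without SCI day 3 replicate 1 or 3, without SCI day 7 replicate 2, or without SCI day 14 replicate 3, where adjusted p-values reached at most 0.176, and 2 were called without sham replicate 2. Without SCI day 7 replicate 1 or 3, or SCI day 14 replicate 1, 6 of the 10 were called, and without SCI day 14 replicate 2, 7 were. The directions of all 10 held in each of the 12 fits that left out 1 library.

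**Figure D5:**
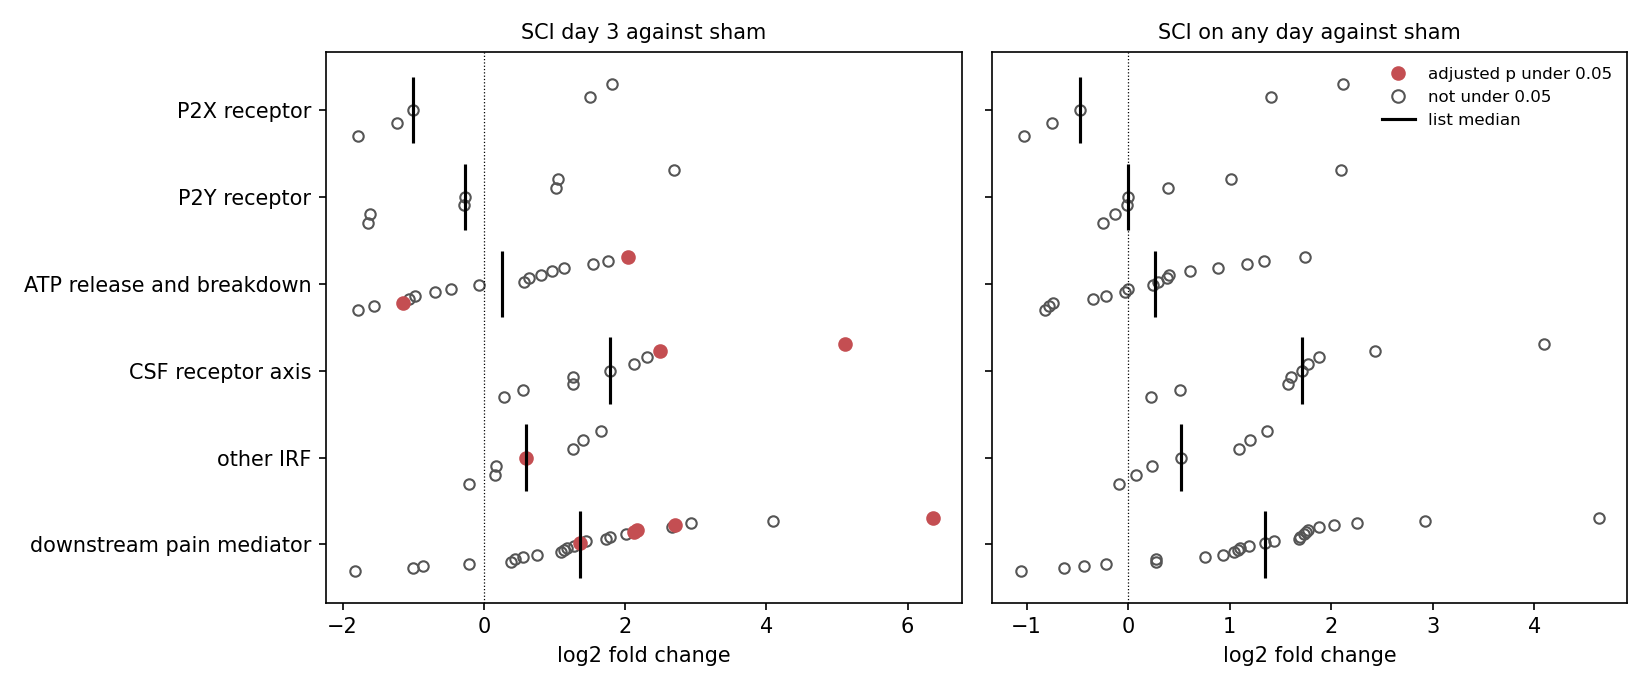
Log2 fold change (x axis) of the genes tested on 6 pathway lists at day 3 against sham (left panel) and over all SCI libraries against sham (right panel), with a point for each gene, filled where the edgeR adjusted p is under 0.05, and a bar at the list median. The filled points number 10, all in the left panel. Il6, listed at 0 in every sham library, counts in the median and is not drawn.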

How the data were processed

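The deposited counts are raw reads per gene, not normalized by the authors, per the file headers. The FPKM values in the deposited table are reads divided by the length of the gene model and by library size, as scaled by the authors per the file headers, and they followed the counts within 0.905% over 9502 genes with many reads. They served only to set levels of different genes side by side. Per the labels' protocols, libraries were made from total RNA with a SMARTer mRNA kit. Aligner, counter and strand setting: not given in the sources used here. The submitters' processing notes name mouse builds while the identifiers are rat, so no coordinates of the table are printed. Promoter sequences are from RefSeq.

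Genes were filtered with filterByExpr (18714 of 23526 kept) and scaled with TMM. All 12 libraries were fitted with 1 mean per group in edgeR 4.0.16 (R 4.3.3; 8 residual degrees of freedom), with quasi-likelihood tests, Benjamini-Hochberg adjustment over all genes and a limit of 0.05. The SE restates the test, as the log2 fold change over the root of F. Distances and ratios used log2 CPM with a prior count of 2. No 2 libraries of the same group were copies, and pairs from different groups were not checked. The code was tried on simulated counts with the same mean level in every library, except for a set of changed genes. Those counts lack the uneven makeup of the real libraries, so the trial checks the code alone. Alternatives were DESeq2 1.42.0, limma 3.58.1 (voom), other scalings and filters, a replicate block, subsets of groups, and libraries left out.

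The members, lists and tests were chosen with earlier results of these data known. Of 181 list symbols, 11 had no row. One result on a gene outside the lists is not reported here. Named pathway genes were up to 4 per list with the smallest p over all SCI libraries, and every list gene that passed. An adjustment over the 7 members alone had been planned for the ratio test and is replaced by one over all genes.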

Additional observations from a re-analysis of the deposited data

How the results depend on the processing

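Alternative fits gave 87 comparisons with sham for each gene, several from the same fit and most from shared libraries. None lost a call, since none had been made, and the direction reversed in 2 for Csf1r and in 1 each for P2rx7 and Irf5. With a library left out, Csf1r at day 3 ran from -0.14 (without SCI day 3 replicate 1) to 1.04 (without SCI day 3 replicate 2). With SCI day 3 replicates 1 and 3 left out, the day 3 values were -0.23 for Csf1r, -0.10 for P2rx7 and -0.10 for Irf5. Calls of members were 2, 3 and 3 at day 3, at day 7 and over all SCI libraries in DESeq2, and 3, 2 and 7 in limma voom. A fit of only the groups compared called 2 at day 7, and leaving out the 3 libraries with ganglion markers called 4 at day 3 and 3 over all SCI libraries. Without those 3 libraries 6787 genes in all were called at day 3 and 2409 over all SCI libraries, in either direction. The share called as higher was not computed for that fit. Leaving out each library in turn called 0 to 4 members at day 3 and over all SCI libraries. The 4 came without SCI day 3 replicate 2, where 19.2% of all genes were called as higher at day 3 and 8.21% over all SCI libraries. Relative to the general markers, 1 member was under 0.05, 0 to 3 with a library left out, and 3 without Fcer1g, where Irf8 was -0.018. Relative to the homeostatic markers, 3 members were, and 2 to 4 with a library left out.

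Over all genes, edgeR called 1254, 3, 3 and 9 at day 3, day 7, day 14 and over all SCI libraries against sham. DESeq2 called 5150, 513, 207 and 1497, and limma voom 6232, 276, 9 and 5716. With no filter 733 passed at day 3, and with only the groups compared 1, 89 and 0 passed at the 3 days. Without SCI day 3 replicates 1 and 3, which leaves 1 day 3 library assumed to vary like the other groups, 1 passed at day 3 and 1 at day 14, and without the ganglion libraries 6787 passed at day 3, 8 at day 7 and 2409 over all SCI libraries. Leaving out each library gave 1 to 7087 at day 3, 1 to 7 at day 7, 1 to 3 at day 14 and 1 to 3341 over all SCI libraries. Between days edgeR called 0 genes, while DESeq2 called 245 (day 7 against day 3), 50 (day 14 against day 7) and 1096 (day 14 against day 3), and voom 1 for day 7 against day 3. Without the ganglion libraries 3222 and 2088 passed for day 7 and day 14 against day 3, and with a library left out 0 to 3605 and 0 to 4342. The cause of these shifts was not tested.

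With the replicate number as a block, 0 members were called, their adjusted p ran from 0.112 to 0.927, and no value moved by more than 0.08 (log2). The block called 8, 1, 1 and 5 genes over all genes against sham, and 1 for day 7 against day 3. Same-numbered libraries correlated between -0.343 and 0.247 in their deviations from group means, over 0.1 in 6 of 18 pairs. Pairs with other numbers correlated between -0.296 and 0.383, over 0.1 in 10 of 36. Whether same-numbered libraries shared handling was not tested, and with 3 libraries per group these values cannot show it. Depth hardly limits these genes, each with at least 196 reads per library, whereas the coefficient of variation between libraries of a group was 0.432 (common estimate in edgeR).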
